A study of Mus musculus with 8 samples.

Results

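The genes of the Wnt family and of its receptors and secreted modulators were examined as a group of 41 among the 26263 genes counted. Members were taken by symbol alone, as *Wnt* with a number and an optional a or b, *Fzd* with a number, *Sfrp1* to *Sfrp5*, *Dkk1* to *Dkk4*, and *Rspo1* to *Rspo4*. This gave 19 Wnt ligands, 10 Frizzled receptors, 4 Sfrp genes, 4 Dkk genes and 4 R-spondins. The Sfrp genes are *Sfrp1*, *Sfrp2*, *Sfrp4* and *Sfrp5*, since the remaining relative carries the symbol *Frzb* in the mouse and was read with the other pathway genes below. Polyadenylated RNA was sequenced from mouse embryonic stem cells (ESCs) and from neural precursor cells (NPCs) harvested 12 days into *in vitro* corticogenesis, with 2 libraries in each of 4 groups. The B/J cross is the male line BJE2, with C57BL/6 as mother and JF1 as father, and the J/B cross is the male line JBE6 from the reverse mating, so each cross is represented by 1 line. ESCs were kept on gelatin in ESGRO medium with LIF, BMP4 and an inhibitor of GSK3-β, a kinase inside the Wnt pathway. NPCs were grown on Matrigel in a defined medium with B27 lacking vitamin A and with dorsomorphin homolog 1, an inhibitor of BMP receptors, so stage and medium cannot be told apart in any comparison of NPCs with ESCs.

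Wnt ligands are secreted lipid-modified proteins that bind Frizzled receptors together with LRP5 or LRP6. When a Wnt binds, the complex of Axin, APC and GSK3 no longer marks β-catenin for destruction, and β-catenin enters the nucleus and acts with TCF and LEF factors on target genes; other Wnts act through planar polarity or calcium without β-catenin. Sfrp proteins bind Wnts outside the cell, Dkk1, Dkk2 and Dkk4 bind LRP5 and LRP6, and R-spondins bind Lgr receptors and so keep Frizzled receptors at the membrane. In the embryo this pathway sets posterior fates during gastrulation, and in the forebrain it acts from the dorsal midline and the cortical hem.

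Gene counts totalled 22537138 to 32706015 reads in a library, and levels below are TMM-normalized CPM (counts scaled to a common library size, written as CPM), where 1 count was worth 0.0256 to 0.0533 CPM. For each gene, libraries are given in the order B/J replicate 1, B/J replicate 2, J/B replicate 1 and J/B replicate 2. Of the 41 members, 40 passed the filter on low counts. The exception was *Dkk4*, an inhibitor of LRP receptors, with 0, 1, 6 and 1 counts in ESCs and 0, 0, 2 and 8 counts in NPCs. A mean of at least 1 CPM was reached by 22 members in ESCs and by 35 in NPCs. Nothing in the labels says that the replicates are separate cultures, so p-values measure the spread between these libraries. In these bulk samples, fewer cells of a type and less RNA per cell cannot be told apart.

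The 8 pluripotency markers summed to between 4545 and 7605 CPM in ESCs and between 80.2 and 229 CPM in NPCs, and all 8 were lower in every NPC library. Of 8 neural precursor markers, 7 were higher in every NPC library, with sums of 56.8 to 124 CPM in ESCs and 283 to 812 CPM in NPCs. Markers of other cells moved with the stage as well. All 10 fibroblast and mesenchyme markers were higher in every NPC library (sums of 9.81 to 81.9 CPM in ESCs and 817 to 2004 CPM in NPCs), and so were all 10 trophoblast markers (15.1 to 88.9 CPM and 1006 to 2873 CPM), of which *Tpbpa*, *Prl3d1* and *Prl2c2* were at 0 in ESCs. Of 8 markers of roof plate, cortical hem and choroid plexus, 5 were higher in every NPC library (9.92 to 21.1 CPM and 42.5 to 95.7 CPM), with *Ttr* at 0 in ESCs, and of 6 endoderm markers 4 were (11.7 to 12.6 CPM and 15.3 to 69.0 CPM), with *Afp* at 0 in ESCs. Of 6 neuron markers, 3 were higher and 1 was lower in every NPC library (306 to 441 CPM and 241 to 1329 CPM), and of 8 midbrain and hindbrain markers 4 were higher and 1 was lower (52.6 to 79.2 CPM and 26.1 to 99.3 CPM). The part of any of these cells in the changes of the Wnt genes was not tested.

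Sequence from the promoters was read first for what the members share. RefSeq promoters (GRCm38.p6, 250 bases before to 50 bases after a transcript start) were found for 27 members, giving 30 promoters, and each matched GRCm39 at exactly 1 place. No entry was found for *Dkk3*, *Dkk4*, *Fzd2*, *Fzd3*, *Fzd6*, *Fzd8*, *Rspo2*, *Rspo3*, *Sfrp1*, *Sfrp4*, *Wnt5a*, *Wnt7b*, *Wnt8a* and *Wnt10a*. The letters CTTTGA, the core of the sequence that TCF and LEF factors recognise, were searched on both strands. They occurred in 4 of the 30 promoters (13.3%), those of *Dkk1*, *Fzd1*, *Wnt11* and *Wnt5b*, and in 4543 of all 32841 promoters in the table (13.8%). The members' promoters had a median of 22 CpG and a GC content of 68.8%, and all promoters had medians of 6 CpG and 52.4%. Coordinates are those of GRCm39, and the motif is in capitals. Promoters of *Dkk2*, *Rspo1*, *Sfrp2*, *Wnt1*, *Wnt2*, *Wnt2b*, *Wnt4*, *Wnt6*, *Wnt7a*, *Wnt8b*, *Wnt9a*, *Wnt9b* and *Wnt10b*, which rose in NPCs, held no match. The first stretches, which lie before the transcript start and outside the gene's GENCODE exons, show *Fzd1* and, of the 2 promoters of *Wnt11*, the upstream entry, which hold a match in genes that rose in NPCs, and *Fzd5*, which holds none and fell.
*Fzd1* (chr5:4808217-4808466, minus strand): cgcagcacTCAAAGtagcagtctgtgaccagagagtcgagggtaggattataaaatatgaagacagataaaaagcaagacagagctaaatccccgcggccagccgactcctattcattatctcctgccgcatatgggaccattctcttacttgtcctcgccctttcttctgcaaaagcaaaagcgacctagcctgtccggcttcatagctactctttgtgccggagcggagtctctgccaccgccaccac
*Wnt11* (chr7:98484069-98484318, plus strand): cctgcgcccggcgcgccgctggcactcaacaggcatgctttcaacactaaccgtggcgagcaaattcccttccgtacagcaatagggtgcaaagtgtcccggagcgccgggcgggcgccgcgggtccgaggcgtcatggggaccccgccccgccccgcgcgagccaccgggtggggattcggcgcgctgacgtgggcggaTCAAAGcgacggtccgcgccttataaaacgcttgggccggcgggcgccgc
*Fzd5* (chr1:64776935-64777159, minus strand): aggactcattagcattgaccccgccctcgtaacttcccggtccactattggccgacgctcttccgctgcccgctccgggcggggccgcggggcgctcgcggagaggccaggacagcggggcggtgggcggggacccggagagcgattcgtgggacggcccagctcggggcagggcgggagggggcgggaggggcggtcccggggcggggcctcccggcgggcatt
Shorter windows of 30 bases show the remaining matches, 2 in *Dkk1* (which rose) and 1 in *Wnt5b* (which was not called). In GENCODE exons of their genes lie all 6 bases of the motif in *Wnt5b* and in the inner match of *Dkk1*, and 1 of the 6 in the outer match of *Dkk1*.
*Dkk1*, at -174 from the start (chr19:30527053-30527082, minus strand): gaggggagagtgTCAAAGtcctccctgctt
*Dkk1*, at -117 from the start (chr19:30526996-30527025, minus strand): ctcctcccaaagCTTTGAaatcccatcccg
*Wnt5b*, at -71 from the start (chr6:119426401-119426430, minus strand): gagtaagtctctCTTTGAtctgctccctgt
The same letters stood in either orientation, TCAAAG in *Fzd1*, *Wnt11* and the outer match of *Dkk1*, and CTTTGA in the inner match of *Dkk1* and in *Wnt5b*. A match is a description of letters and not a site of binding.

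Most of the group was higher in NPCs. Over both crosses, 26 of the 40 members tested rose, 3 fell and 11 were not called at an adjusted p of 0.05 in edgeR's quasi-likelihood test, where 37.5% of all genes tested rose and 31.9% fell. By role, 14 of 19 ligands rose and 1 fell, 5 of 10 receptors rose and 2 fell, 1 of 4 Sfrp genes rose, all 3 Dkk genes tested rose, and 3 of 4 R-spondins rose. Levels of the 4 NPC libraries lay wholly above those of the 4 ESC libraries for 26 members, against 35.3% of all genes, and wholly below for 4, against 31.2% of all genes. The median log2 fold change was 3.005 over the members tested and 0.17 over all genes tested. With library totals the median of all genes shifted to 0.65 and with scaling to *Gapdh*, *Gusb* and *Tbp* to 0.80, and the share of rises among all calls went from 54.0% to 70.1% and 75.0%, while the members' median went to 3.46 and 3.61.

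**Figure D1:**
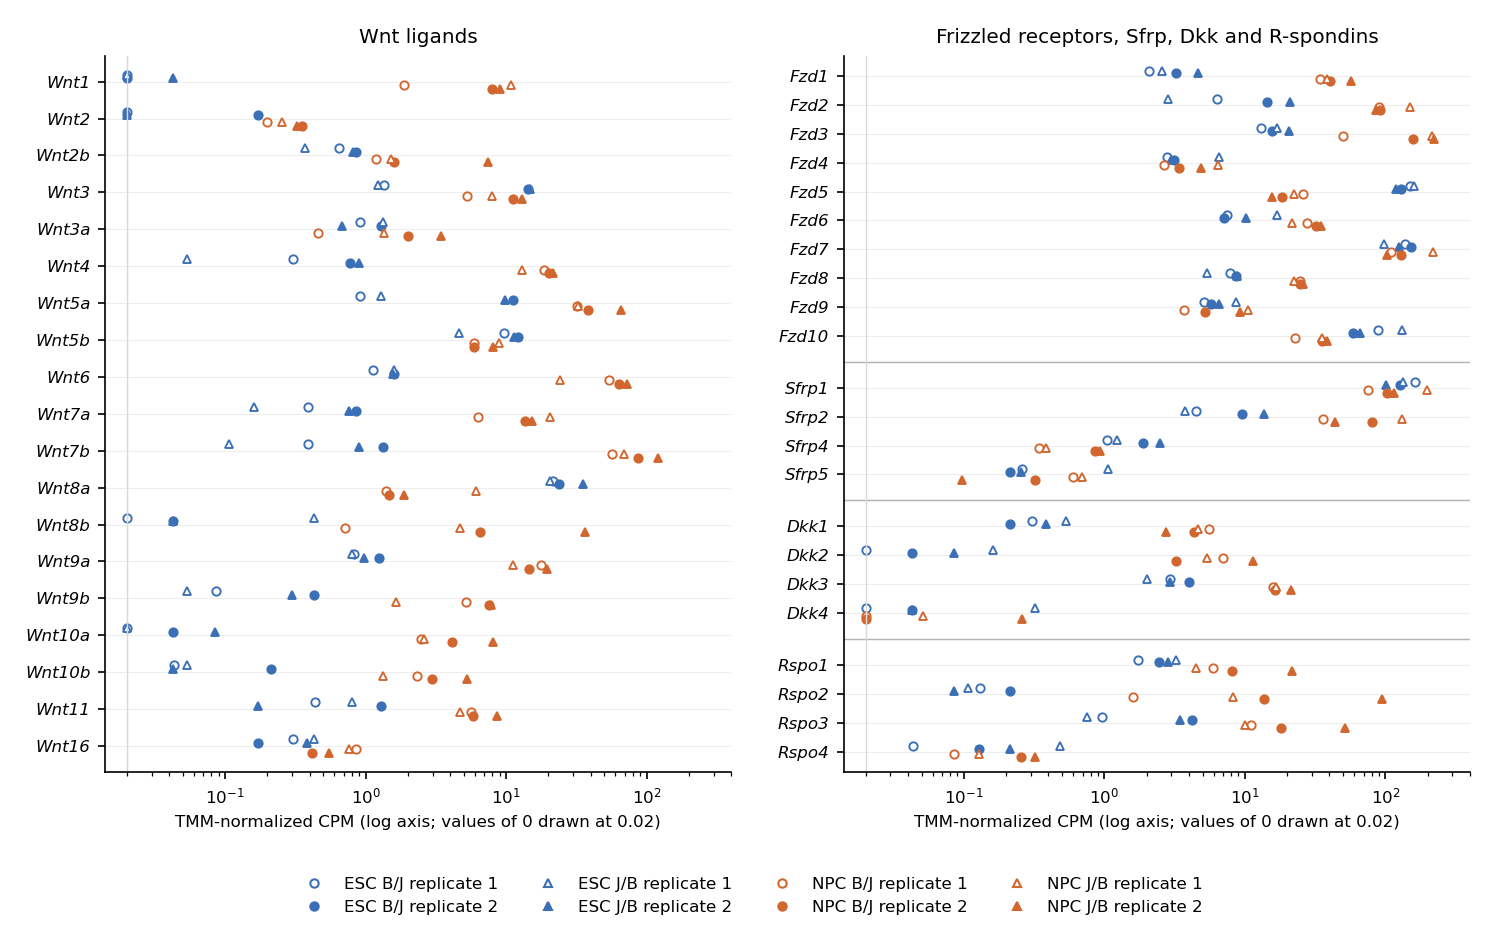
Level of each of the 41 members in each of the 8 libraries, as TMM-normalized CPM on a log axis, with values of 0 drawn at 0.02. Blue marks ESCs and orange NPCs, circles B/J and triangles J/B, open symbols replicate 1 and filled symbols replicate 2. *Wnt8a*, *Fzd5*, *Fzd10* and *Sfrp4* are the 4 members whose orange points all lie left of the blue points, and 26 members have all orange points to the right.

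Among the ligands, ESCs were led by *Wnt8a*, a Wnt of the primitive streak that lies at chr18:34675277-34681326 in GRCm39. *Wnt8a* was at 21.7, 23.7, 20.6 and 35.6 CPM in the ESC libraries and at 1.40, 1.47, 6.07 and 1.87 CPM in the NPC libraries. All NPC libraries lay below all ESC libraries, with J/B replicate 1 the highest of the NPCs, and the gene fell (log2 fold change -3.40 ± 0.40, SE, edgeR adjusted p = 0.000212). Per kilobase of transcript, *Wnt8a* made up 61.3% ± 10.03 of the summed ligand level in ESCs and 2.01% ± 2.03 in NPCs (SD, n = 4 libraries each). The ligands as a whole summed to between 33.9 and 79.2 CPM in ESCs and between 219 and 424 CPM in NPCs.

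In NPCs the leading ligands per kilobase were *Wnt7b* and *Wnt6*. *Wnt7b*, a ligand made by cortical cells and known for its role in blood vessel growth of the brain, lies at chr15:85419638-85466674 in GRCm39. ESC libraries held *Wnt7b* at 0.391, 1.33, 0.107 and 0.895 CPM and NPC libraries at 57.1, 86.9, 69.6 and 120.3 CPM. The groups did not overlap, and the gene rose (log2 fold change 6.93 ± 0.57, SE, edgeR adjusted p = 4.71e-05; 8.07 without ESC J/B replicate 2). Levels of *Wnt6* were 1.13, 1.58, 1.60 and 1.58 CPM in ESCs and 54.2, 63.5, 24.1 and 72.3 CPM in NPCs. *Wnt6*, a ligand of ectoderm and of epithelia, lies at chr1:74810922-74824975 in GRCm39 and rose (log2 fold change 5.18 ± 0.40, SE, edgeR adjusted p = 3.74e-05), with NPC J/B replicate 1 the lowest of the NPC libraries. *Wnt7b* held 28.5% ± 1.89 of the ligand sum per kilobase and *Wnt6* 23.8% ± 7.83 (SD, n = 4), and their order was not the same in every library, since *Wnt6* led in NPC B/J replicate 1 and *Wnt7b* in the other 3. The next in order, *Wnt5a*, *Wnt9a*, *Wnt7a* and *Wnt4*, lay between 5.82 and 3.99 CPM per kilobase on average, and their shares were 6.89% ± 0.55, 5.60% ± 1.64, 5.29% ± 2.89 and 4.93% ± 1.10. Neighbours in that order changed places in at least 1 NPC library, while *Wnt5a* was above *Wnt4* in all 4.

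**Figure D2:**
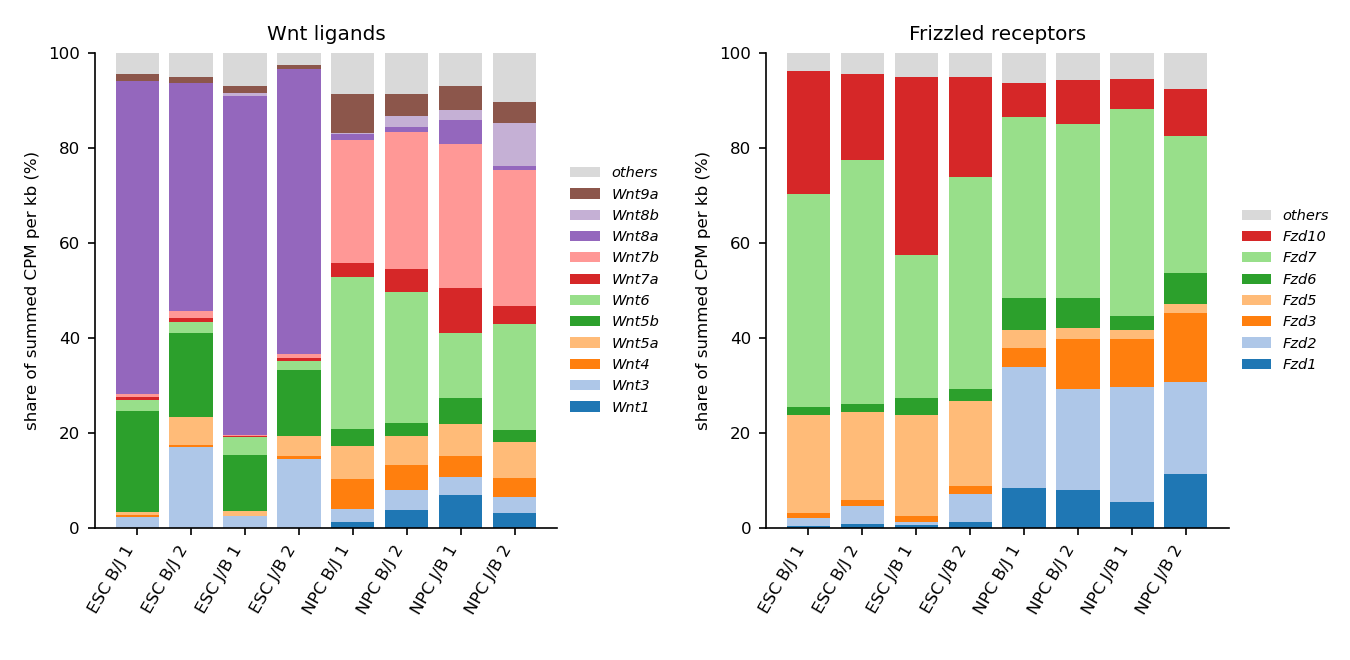
Share of each gene in the summed CPM per kilobase of canonical transcript, for the Wnt ligands (left) and the Frizzled receptors (right), in each of the 8 libraries, with genes of small share pooled as others. *Wnt8a* fills between 47.9% and 71.3% of the ligand bars in ESCs, and *Wnt6* with *Wnt7b* leads those of NPCs.

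*Wnt5a*, the main ligand of planar polarity signalling, rose from a level that differed between ESC libraries. For *Wnt5a*, ESCs gave 0.912, 11.2, 1.28 and 9.76 CPM and NPCs gave 31.7, 38.3, 32.6 and 65.4 CPM. Groups did not overlap and it rose over both crosses (log2 fold change 2.84 ± 0.81, SE, edgeR adjusted p = 0.0147; 4.20 without ESC B/J replicate 2 and 3.90 without ESC J/B replicate 2), but within neither cross alone was it called. Without a filter on low counts its adjusted p in edgeR was 0.0685. *Wnt4* was at 0.304, 0.770, 0.0533 and 0.895 CPM in the ESC libraries and at 18.7, 20.3, 13.0 and 21.7 CPM in the NPC libraries. *Wnt4*, a ligand known from kidney and gonad, was below 1 CPM in every ESC library, did not overlap and rose (log2 fold change 5.15 ± 0.64, SE, edgeR adjusted p = 0.000266; 6.71 without ESC J/B replicate 2). ESC libraries held *Wnt9a* at 0.825, 1.24, 0.8002 and 0.981 CPM and NPC libraries at 17.8, 14.5, 11.3 and 19.5 CPM. *Wnt9a*, a ligand of joints and blood stem cells, had close values within each stage and rose (log2 fold change 4.03 ± 0.32, SE, edgeR adjusted p = 4.00e-05).

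Levels of *Wnt7a* were 0.391, 0.855, 0.160 and 0.767 CPM in ESCs and 6.27, 13.6, 20.4 and 15.3 CPM in NPCs. *Wnt7a*, a close relative of *Wnt7b* that is known from synapses and the limb, rose with no overlap (log2 fold change 4.60 ± 0.54, SE, edgeR adjusted p = 0.000207; 5.38 without ESC J/B replicate 2). *Wnt1*, the ligand of the midbrain and hindbrain boundary and of the dorsal midline, was almost silent in ESCs. For *Wnt1*, ESCs gave 0, 0, 0 and 0.0426 CPM and NPCs gave 1.88, 7.92, 10.9 and 9.01 CPM. A total of 1 count in the 4 ESC libraries stood against 1017 counts in NPCs, a ratio of normalized counts of 661 with a 95% counting interval of 118 to 26114 (edgeR adjusted p = 0.000195). Such intervals cover counting error only. Its fitted log2 fold change, which at so few counts depends on the prior count, was 9.29, which became 10.65 with ESC J/B replicate 2 left out and 8.59 with NPC B/J replicate 2 left out. *Wnt10a* was at 0, 0.0428, 0 and 0.0853 CPM in the ESC libraries and at 2.48, 4.12, 2.61 and 8.08 CPM in the NPC libraries. *Wnt10a*, a ligand of teeth, skin and hair, had 3 counts over the ESC libraries and 568 over the NPC libraries, a ratio of 123 with an interval of 41.9 to 598 (edgeR adjusted p = 0.000248), and its fitted change of 6.85 was 8.15 and 8.63 with ESC B/J or J/B replicate 2 left out.

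ESC libraries held *Wnt10b* at 0.0434, 0.214, 0.0533 and 0.0426 CPM and NPC libraries at 2.31, 2.97, 1.33 and 5.23 CPM. *Wnt10b*, a ligand that restrains fat cell formation, rose from 8 counts in all ESC libraries (log2 fold change 5.14 ± 0.73, SE, edgeR adjusted p = 0.000508; 5.89 without ESC B/J replicate 2 and 4.50 without NPC J/B replicate 2). Levels of *Wnt11* were 0.434, 1.28, 0.8002 and 0.171 CPM in ESCs and 5.67, 5.78, 4.73 and 8.59 CPM in NPCs. *Wnt11*, which acts in gastrulation movements and heart formation, did not overlap between the stages and rose (log2 fold change 3.26 ± 0.57, SE, edgeR adjusted p = 0.00144; 3.99 without ESC J/B replicate 1). For *Wnt9b*, ESCs gave 0.0868, 0.428, 0.0533 and 0.298 CPM and NPCs gave 5.19, 7.57, 1.64 and 7.75 CPM. *Wnt9b*, a ligand of kidney tubules and the face, did not overlap and rose (log2 fold change 4.62 ± 0.78, SE, edgeR adjusted p = 0.00120; 5.39 and 5.48 with ESC B/J or J/B replicate 2 left out, and 3.87 with NPC J/B replicate 2 left out).

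*Wnt8b* was at 0, 0.0428, 0.427 and 0.0426 CPM in the ESC libraries and at 0.712, 6.54, 4.68 and 36.3 CPM in the NPC libraries. *Wnt8b*, which marks the cortical hem and the hippocampal border, rose (log2 fold change 6.81 ± 1.27, SE, edgeR adjusted p = 0.00204) from 10 counts over the ESC libraries, and the change was 5.74 without NPC J/B replicate 2, 5.63 without NPC B/J replicate 2, 8.11 without ESC B/J replicate 2 and 7.95 without ESC J/B replicate 1, the last with 2 ESC counts left, where the fitted value depends on the prior count. ESC libraries held *Wnt2b* at 0.651, 0.855, 0.373 and 0.810 CPM and NPC libraries at 1.20, 1.60, 1.51 and 7.50 CPM. *Wnt2b*, also a hem ligand, was between 1.20 and 1.60 CPM in 3 NPC libraries and higher in the fourth (log2 fold change 1.89 ± 0.59, SE, edgeR adjusted p = 0.0205), and without that library its change was 1.11 (edgeR adjusted p = 0.1055). The call of *Wnt2b* was also lost in limma-voom (adjusted p = 0.06335) and with ESC B/J replicate 1, ESC B/J replicate 2, ESC J/B replicate 1 or NPC B/J replicate 2 left out (edgeR adjusted p = 0.0522 to 0.06955). *Wnt2*, a ligand of lung and blood vessels, had 0, 4, 0 and 0 counts in ESCs and 7, 11, 10 and 10 counts in NPCs, was called (log2 fold change 3.84 ± 1.22, SE, edgeR adjusted p = 0.0263), also without ESC B/J replicate 2, which held all its ESC counts (edgeR adjusted p = 0.0142, with a fitted change of 6.04 that, against 0 counts, depends on the prior count), and lost the call with any of 6 single libraries left out and in DESeq2 (adjusted p = 0.0825).

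Of the ligands, 4 were not called. Levels of *Wnt3* were 1.35, 14.4, 1.23 and 14.8 CPM in ESCs and 5.27, 11.3, 7.88 and 12.9 CPM in NPCs. *Wnt3*, the ligand that starts the primitive streak, was high in the ESC libraries numbered 2 and low in those numbered 1, and all its NPC values lay between them (log2 fold change 0.22 ± 0.85, SE, edgeR adjusted p = 0.825). For *Wnt5b*, ESCs gave 9.64, 12.2, 4.64 and 11.5 CPM and NPCs gave 5.87, 5.94, 8.96 and 8.05 CPM. *Wnt5b*, a relative of *Wnt5a*, overlapped between the stages (log2 fold change -0.41 ± 0.32, SE, edgeR adjusted p = 0.280; called lower without ESC J/B replicate 1, at -0.66 with an edgeR adjusted p of 0.0486), and it was the next ligand after *Wnt8a* in ESCs per kilobase by its mean, at 16.1% ± 4.21 of the sum, with *Wnt3* above it in J/B replicate 2. *Wnt3a* was at 0.912, 1.28, 1.33 and 0.682 CPM in the ESC libraries and at 0.456, 2.01, 1.36 and 3.42 CPM in the NPC libraries. *Wnt3a*, the ligand of the tail bud and the cortical hem, overlapped as well (log2 fold change 0.71 ± 0.60, SE, edgeR adjusted p = 0.315), and *Wnt16*, below 1 CPM in every library, was not called (log2 fold change 1.05 ± 0.52, SE, edgeR adjusted p = 0.102) except with library totals (1.52, edgeR adjusted p = 0.0278) and with scaling to *Gapdh*, *Gusb* and *Tbp* (1.65, edgeR adjusted p = 0.0178).

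**Figure D3:**
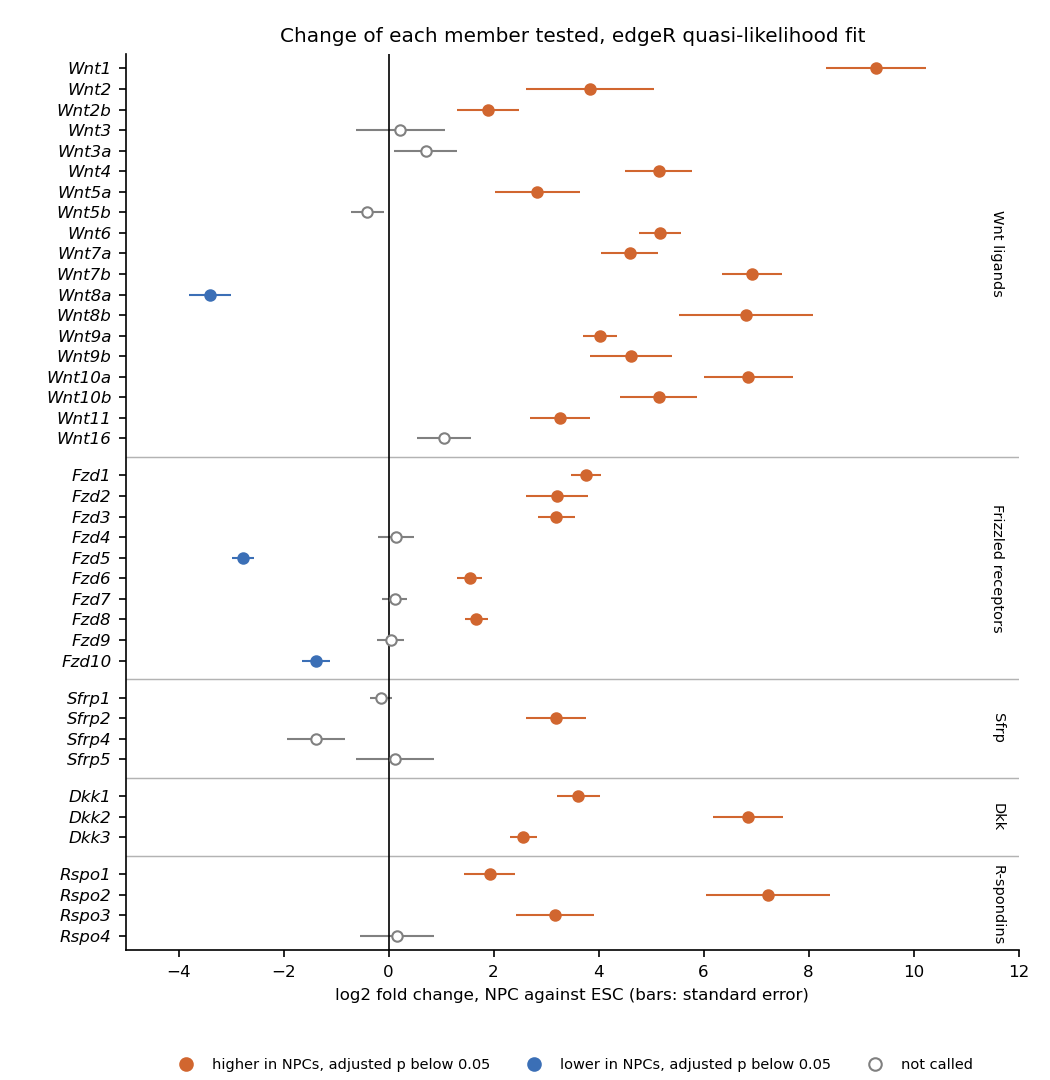
Log2 fold change of NPCs against ESCs over both crosses for each of the 40 members tested, by role. Bars show a standard error derived from the F statistic of edgeR's quasi-likelihood test. Filled orange points rose and filled blue points fell at an adjusted p below 0.05, and open grey points were not called. The 3 blue points are *Wnt8a* at -3.40, *Fzd5* at -2.77 and *Fzd10* at -1.38.

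Several ligands lie beside each other in the genome. *Wnt6* and *Wnt10a*, on the same strand of chromosome 1 with 5.70 kb between them, both rose. *Wnt1* and *Wnt10b*, on opposite strands of chromosome 15, both rose as well, but their GENCODE models overlap by 2308 bases, with 489 bases in exons of both, and no source used here says whether counting used the strand, so a part of their reads may be shared or lost. On chromosome 11, *Wnt9b* rose and its neighbour *Wnt3* at 24.3 kb was not called, and *Wnt9a* rose and its neighbour *Wnt3a* at 16.0 kb was not called.

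The Frizzled receptors summed to between 385 and 450 CPM in ESCs and between 392 and 738 CPM in NPCs, and their make-up shifted. *Fzd7*, a receptor linked to the undifferentiated state of stem cells, lies at chr1:59521269-59534685 in GRCm39. ESC libraries held *Fzd7* at 138, 153, 97.1 and 126 CPM and NPC libraries at 109, 128, 217 and 103 CPM. It had the highest mean level per kilobase of the 10 receptors in both stages, with 42.7% ± 8.96 of the receptor sum in ESCs and 36.8% ± 6.05 in NPCs (SD, n = 4), although *Fzd10* was above it in ESC J/B replicate 1. The stages overlapped and *Fzd7* was not called (log2 fold change 0.11 ± 0.23, SE, edgeR adjusted p = 0.676), but it was called higher with scaling to *Gapdh*, *Gusb* and *Tbp* (0.72, edgeR adjusted p = 0.0284).

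The 2 receptors that fell were the next in order in ESCs per kilobase by their means, while by mean CPM *Fzd5* was above *Fzd7*. Levels of *Fzd5* were 150.4, 129, 161 and 119 CPM in ESCs and 26.0, 18.4, 22.3 and 15.5 CPM in NPCs. *Fzd5*, a receptor of the early embryo, yolk sac and eye at chr1:64769717-64776934 in GRCm39, had no overlap and fell (log2 fold change -2.77 ± 0.20, SE, edgeR adjusted p = 3.11e-05). For *Fzd10*, ESCs gave 88.3, 59.3, 132 and 65.8 CPM and NPCs gave 22.7, 35.6, 35.1 and 38.6 CPM. *Fzd10*, which is found in the dorsal neural tube, was highest in ESC J/B replicate 1, did not overlap and fell (log2 fold change -1.38 ± 0.27, SE, edgeR adjusted p = 0.00249), by 0.89 with library totals and by 0.72 (edgeR adjusted p = 0.0466) with scaling to *Gapdh*, *Gusb* and *Tbp*. In ESCs *Fzd10* held 25.7% ± 8.42 and *Fzd5* 19.6% ± 1.63 of the receptor sum per kilobase, a difference within the spread of the libraries.

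Receptors that rose were *Fzd1*, *Fzd2*, *Fzd3*, *Fzd6* and *Fzd8*. *Fzd2* was at 6.34, 14.5, 2.83 and 21.0 CPM in the ESC libraries and at 90.4, 92.0, 149.5 and 85.6 CPM in the NPC libraries. *Fzd2*, a receptor for Wnt5a, was the second of the NPC receptors per kilobase, with 22.6% ± 2.73 of the sum, though its mean CPM was below that of *Fzd3*, and rose (log2 fold change 3.21 ± 0.59, SE, edgeR adjusted p = 0.00183; 4.26 without ESC J/B replicate 2). ESC libraries held *Fzd3* at 13.0, 15.5, 17.0 and 20.5 CPM and NPC libraries at 50.2, 158, 214 and 220.1 CPM. *Fzd3*, a receptor needed for the growth of axon tracts, was lowest of the NPC libraries in B/J replicate 1 and rose (log2 fold change 3.20 ± 0.35, SE, edgeR adjusted p = 0.000139). Levels of *Fzd1* were 2.08, 3.25, 2.56 and 4.65 CPM in ESCs and 34.1, 40.1, 38.7 and 57.3 CPM in NPCs. *Fzd1*, a close relative of *Fzd2* and *Fzd7*, rose (log2 fold change 3.76 ± 0.29, SE, edgeR adjusted p = 3.53e-05). For *Fzd6*, ESCs gave 7.51, 7.10, 17.0 and 10.1 CPM and NPCs gave 27.8, 32.3, 21.5 and 34.6 CPM. *Fzd6*, a receptor of planar polarity that orients hair, rose with no overlap (log2 fold change 1.54 ± 0.25, SE, edgeR adjusted p = 0.000868). *Fzd8* was at 7.86, 8.60, 5.33 and 8.83 CPM in the ESC libraries and at 24.8, 24.5, 22.3 and 25.8 CPM in the NPC libraries. *Fzd8*, a receptor of the forebrain, had close values within each stage and rose (log2 fold change 1.67 ± 0.22, SE, edgeR adjusted p = 0.000317). Among the NPC receptors, *Fzd3*, *Fzd1* and *Fzd10* held 9.73% ± 4.26, 8.32% ± 2.41 and 8.19% ± 1.65 of the sum per kilobase, which do not differ beyond their spread.

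The remaining receptors were low and were not called. ESC libraries held *Fzd4* at 2.78, 3.12, 6.51 and 2.98 CPM and NPC libraries at 2.65, 3.42, 6.47 and 4.85 CPM. *Fzd4*, the receptor for norrin in retinal vessels, was higher in the replicate 1 libraries of J/B at both stages (log2 fold change 0.15 ± 0.35, SE, edgeR adjusted p = 0.716). Levels of *Fzd9* were 5.08, 5.77, 8.64 and 6.52 CPM in ESCs and 3.70, 5.24, 10.5 and 9.18 CPM in NPCs. *Fzd9*, a receptor of the hippocampus, showed overlap of the stages (log2 fold change 0.05 ± 0.26, SE, edgeR adjusted p = 0.878).

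Among the Sfrp genes, which encode decoys that hold Wnts outside the cell, the most abundant gene of ESCs was not called and another rose. For *Sfrp1*, ESCs gave 163, 127, 133 and 102 CPM and NPCs gave 75.5, 102, 198 and 115 CPM. *Sfrp1*, at chr8:23901263-23939648 in GRCm39, was the leading Sfrp gene in each ESC library, overlapped between the stages and was not called (log2 fold change -0.15 ± 0.21, SE, edgeR adjusted p = 0.559), and its sign turned with library totals (0.34) and with scaling to *Gapdh*, *Gusb* and *Tbp* (0.49). *Sfrp2* was at 4.51, 9.58, 3.73 and 13.6 CPM in the ESC libraries and at 35.8, 80.4, 131 and 43.8 CPM in the NPC libraries. *Sfrp2*, at chr3:83673481-83681623 in GRCm39, rose with no overlap (log2 fold change 3.18 ± 0.57, SE, edgeR adjusted p = 0.00160; 3.81 without ESC J/B replicate 2) and went from 11.5% ± 7.58 to 53.8% ± 8.09 of the Sfrp sum per kilobase (SD, n = 4), while *Sfrp1* went from 85.2% ± 8.49 to 45.2% ± 7.88. Per kilobase, *Sfrp2* led in 3 NPC libraries and *Sfrp1* in J/B replicate 2, while by CPM *Sfrp1* was above *Sfrp2* in all 4.

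ESC libraries held *Sfrp4* at 1.04, 1.88, 1.23 and 2.47 CPM and NPC libraries at 0.342, 0.862, 0.384 and 0.937 CPM. *Sfrp4*, known from phosphate handling and bone, had every NPC library below every ESC library and was just short of the threshold (log2 fold change -1.39 ± 0.55, SE, edgeR adjusted p = 0.0529), and it was called lower in several other settings, among them limma-voom (-1.47, adjusted p = 0.0357) and the fits with ESC J/B replicate 1, NPC B/J replicate 2 or NPC J/B replicate 2 left out (edgeR adjusted p = 0.0443, 0.0493 and 0.04998). *Sfrp5*, a gene of foregut endoderm, had means of 0.45 ± 0.41 CPM in ESCs and 0.43 ± 0.27 CPM in NPCs (SD, n = 4) and was not called (log2 fold change 0.12 ± 0.75, SE, edgeR adjusted p = 0.894).

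The 3 Dkk genes tested were low in ESCs and rose. Levels of *Dkk1* were 0.304, 0.214, 0.533 and 0.384 CPM in ESCs and 5.58, 4.31, 4.61 and 2.75 CPM in NPCs. *Dkk1*, the LRP inhibitor that acts in head formation, rose with no overlap (log2 fold change 3.62 ± 0.41, SE, edgeR adjusted p = 0.000157). For *Dkk2*, ESCs gave 0, 0.0428, 0.160 and 0.0853 CPM and NPCs gave 7.01, 3.26, 5.40 and 11.4 CPM. *Dkk2*, a relative that also binds LRP receptors, rose from 6 counts over the ESC libraries to 912 counts (log2 fold change 6.85 ± 0.66, SE, edgeR adjusted p = 8.30e-05; 8.15 without ESC B/J replicate 2). *Dkk3* was at 2.95, 3.98, 2.03 and 2.94 CPM in the ESC libraries and at 15.9, 16.4, 16.5 and 21.2 CPM in the NPC libraries. *Dkk3*, a divergent member that does not bind LRP receptors, rose (log2 fold change 2.57 ± 0.25, SE, edgeR adjusted p = 8.49e-05) and was the leading Dkk gene per kilobase by its mean in both stages, at 68.2% ± 19.6 and 44.8% ± 4.89 of the Dkk sum (SD, n = 4). The Dkk sum was 3.04 to 4.28 CPM in ESCs and 24.0 to 35.6 CPM in NPCs.

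The R-spondins summed to between 2.87 and 6.97 CPM in ESCs and between 18.6 and 168 CPM in NPCs. ESC libraries held *Rspo2* at 0.130, 0.214, 0.107 and 0.0853 CPM and NPC libraries at 1.60, 13.7, 8.29 and 94.5 CPM. *Rspo2*, a growth factor of limb and lung at chr15:42877439-43034706 in GRCm39, rose (log2 fold change 7.22 ± 1.18, SE, edgeR adjusted p = 0.00102), and its NPC libraries covered a 59.2-fold range with J/B replicate 2 on top, and the change was 5.91 without that library and 6.09 without NPC B/J replicate 2. Levels of *Rspo3* were 0.955, 4.19, 0.747 and 3.45 CPM in ESCs and 10.997, 18.005, 10.1 and 51.7 CPM in NPCs. *Rspo3*, which is made in the cortical hem and in vessels, rose as well (log2 fold change 3.17 ± 0.74, SE, edgeR adjusted p = 0.00583; 2.37 without NPC J/B replicate 2, and 3.89 and 3.94 without ESC B/J or ESC J/B replicate 2). For *Rspo1*, ESCs gave 1.74, 2.44, 3.25 and 2.86 CPM and NPCs gave 5.93, 8.11, 4.50 and 21.8 CPM. *Rspo1*, known from ovary development, was the leading R-spondin per kilobase in every ESC library, though by CPM *Rspo3* was above it in both numbered 2, and rose (log2 fold change 1.92 ± 0.49, SE, edgeR adjusted p = 0.00895; 1.16 without NPC J/B replicate 2, edgeR adjusted p = 0.0253). *Rspo4*, the R-spondin of nails, had 18 counts over the ESC libraries and 26 over the NPC libraries and was not called (log2 fold change 0.16 ± 0.70, SE, edgeR adjusted p = 0.843).

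Libraries of the same stage differed in these genes, along with markers of other cells. In ESCs, both libraries numbered 2 were above both numbered 1 for 17 of the 40 members tested, against 28.3% of all genes, among them *Wnt3* (14.4 and 14.8 CPM against 1.35 and 1.23 CPM), *Wnt8a*, *Wnt5a*, *Fzd2*, *Rspo3* and *Sfrp2*. The opposite split held for 4 members, *Fzd5*, *Fzd10*, *Sfrp1* and *Sfrp5*, against 27.9% of all genes. The 7 markers of primitive streak and paraxial mesoderm summed to 30.8, 146, 40.0 and 107 CPM in the same libraries, and *T*, the defining gene of the primitive streak, was at 6.60, 84.4, 8.96 and 65.8 CPM. Across the stages that marker sum went from between 30.8 and 146 CPM to between 16.3 and 171 CPM, with 1 of 7 markers higher and 3 lower in every NPC library. Other lists split by number in ESCs, the trophoblast markers with sums of 15.1, 88.9, 23.2 and 52.2 CPM and the pluripotency markers, lower in the libraries numbered 2, with 7094, 5098, 7605 and 4545 CPM. Neural precursor markers were higher in those numbered 2 (105, 124, 56.8 and 114 CPM). So were the markers of roof plate, cortical hem and choroid plexus (13.1, 18.9, 9.92 and 21.1 CPM). Endoderm (12.6, 11.7, 12.4 and 12.0 CPM) and midbrain and hindbrain markers (79.2, 68.3, 68.6 and 52.6 CPM) were lower in those numbered 2. In NPCs, both libraries numbered 2 were above both numbered 1 for 21 of the 40 members tested, against 22.1% of all genes. Of these 21, 13 were ligands. The opposite split held for 4 members, against 21.8% of all genes. J/B replicate 2 was the highest NPC library for 25 of the 40 members tested, 13 of them ligands, against 29.5% of all genes. These included *Wnt7b*, *Wnt6*, *Wnt8b*, *Wnt2b*, *Fzd3*, *Dkk3* and all 4 R-spondins. The 8 markers of dorsal telencephalon summed to 39.6, 89.8, 63.2 and 294 CPM in the NPC libraries, against 22.8 to 35.0 CPM in ESCs, and 7 of the 8 were higher in every NPC library than in any ESC library. The same library was highest for the neuron markers (241, 886, 664 and 1329 CPM) and for those of roof plate, cortical hem and choroid plexus (42.5, 64.5, 70.5 and 95.7 CPM), and lowest for the trophoblast markers (2873, 1444, 1537 and 1006 CPM). Neural precursor markers (283, 548, 812 and 724 CPM) were highest in J/B replicate 1. So were those of midbrain and hindbrain (26.1, 55.8, 99.3 and 67.9 CPM) and of endoderm (22.8, 15.3, 69.0 and 55.5 CPM). Primitive streak and paraxial mesoderm markers also peaked there (19.3, 16.3, 171 and 42.6 CPM). Fibroblast and mesenchyme markers were highest in B/J replicate 1 (2004, 1495, 817 and 1966 CPM). Pluripotency markers peaked in B/J replicate 2 (126, 229, 80.2 and 115 CPM). The labels name a pair of library kits and a pair of sequencers without tying them to libraries, so kit and sequencer cannot be set beside these values, and the part of marker cells in them was not tested.

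**Figure D4:**
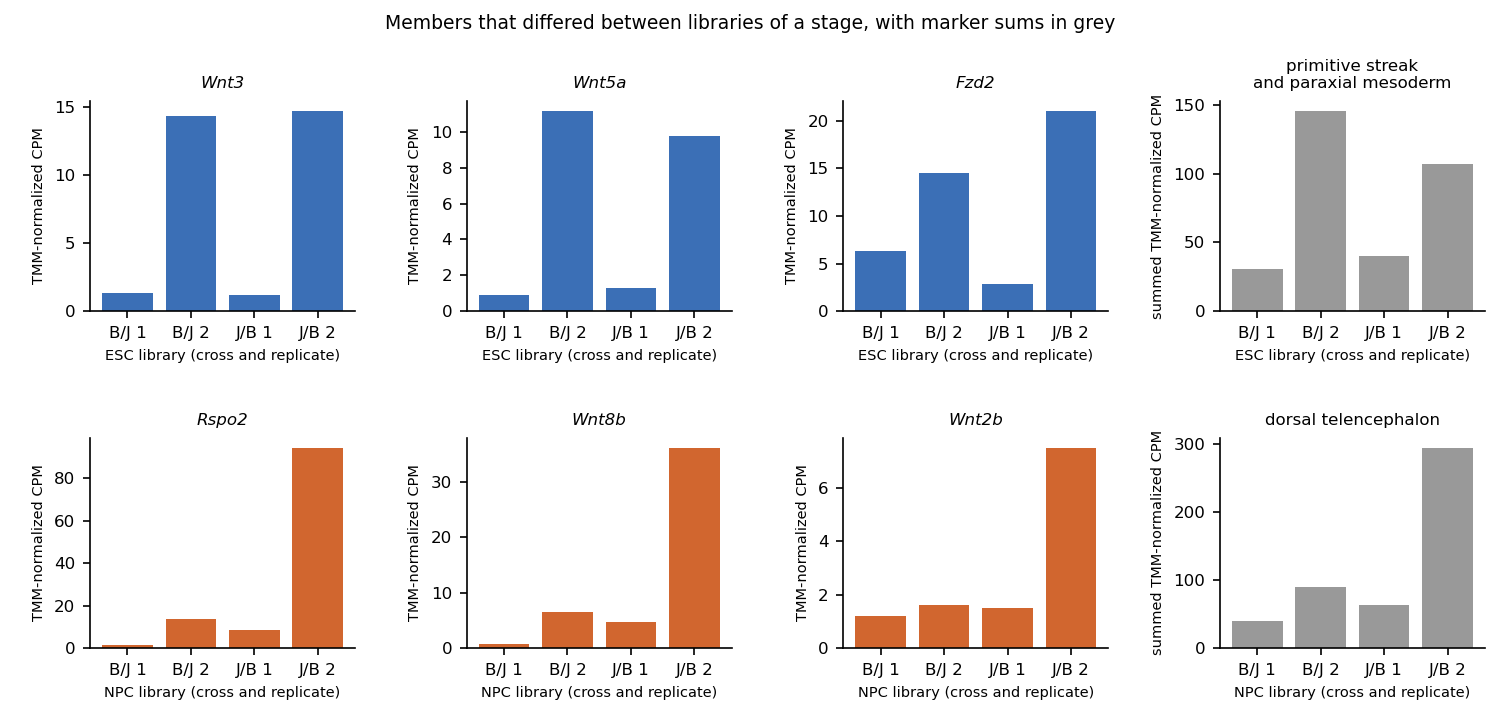
Levels in single libraries as TMM-normalized CPM, with ESC libraries in the upper row (*Wnt3*, *Wnt5a*, *Fzd2*) and NPC libraries in the lower row (*Rspo2*, *Wnt8b*, *Wnt2b*), each bar 1 library. Grey panels show summed CPM of the primitive streak and paraxial mesoderm markers in ESCs (30.8 to 146) and of the dorsal telencephalon markers in NPCs (39.6 to 294). In the upper row the libraries numbered 2 are the higher in each line, and in the lower row J/B replicate 2 is the highest.

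Members could also be grouped by their pattern over the 8 libraries, which mostly holds the difference of the stages, as the Pearson correlation of log2(CPM + 1) and as a description only. *Wnt7b* was most like *Dkk3* (0.996), *Wnt1* was most like *Fzd3* (0.995), *Wnt8b* was most like *Rspo2* (0.994), *Wnt9a* was most like *Wnt4* (0.994) and *Fzd2* was most like *Sfrp2* (0.9696). Among the genes that fell, *Wnt8a* and *Fzd5* were most like each other (0.931) and *Fzd10* was most like *Fzd5* (0.859). *Fzd7* and *Sfrp1*, which were not called, were also each other's nearest, at a lower 0.655.

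The change between the stages was read within each line. In B/J, 21 members rose and 3 fell, where 30.1% of all genes tested rose and 25.6% fell, and in J/B 25 members rose and 3 fell, where 29.1% rose and 25.3% fell. All 24 members called in B/J were called in J/B with the same direction, and they made up 85.7% of the 28 called in J/B. The others called in J/B were *Rspo1*, *Rspo3*, *Wnt2b* and *Wnt2*. For the first 3, log2 fold changes in B/J and J/B were 1.75 and 2.10, 2.49 and 3.86, and 0.89 and 2.90. In J/B, *Wnt2* had 20 counts in NPCs and 0 in ESCs, so no fold is given. The interaction of stage and cross was called by edgeR for 0 members (percent of all genes called 0), with 1 member, *Sfrp1*, at an unadjusted p below 0.05 (difference of log2 fold changes 1.13 ± 0.43, SE), and DESeq2 and limma-voom called 0 members. The change of *Sfrp1* was -0.71 in B/J and 0.42 in J/B, and neither passed the adjustment.

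The lines were also set against each other within a stage. In ESCs, edgeR called 0 members between J/B and B/J (0% of all genes), 1 member, *Fzd6*, had an unadjusted p below 0.05 (0.89 ± 0.35, SE, higher in J/B), and DESeq2 and limma-voom called 0. In NPCs, edgeR called 0 members (0.0061% of all genes), and *Fzd9*, *Sfrp1*, *Wnt8a* and *Fzd3* had unadjusted p below 0.05, with log2 differences of J/B over B/J of 1.14 ± 0.37, 0.82 ± 0.30, 1.47 ± 0.55 and 1.06 ± 0.45 (SE). None passed the adjustment, and DESeq2 and limma-voom called 0 here too. With 2 libraries a group, these comparisons do not show that the lines are alike: for *Rspo2* the lines differed by 2.75 on the log2 scale in NPCs (edgeR adjusted p = 0.77).

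Other genes of the pathway were read from lists by place of action. Their counts stand against 37.5% of all genes tested that rose and 31.9% that fell, and their medians against a log2 fold change of 0.17 over all genes. Of 16 receptor partners (median 0.55), 8 rose and 8 were not called, led by *Rnf43*, which removes Frizzled receptors (0.62 ± 0.13 to 11.1 ± 4.17 CPM, SD, n = 4; log2 fold change 4.14 ± 0.43, SE, edgeR adjusted p = 0.000113), and *Lgr5*, a receptor for R-spondins (0.32 ± 0.22 to 5.55 ± 1.23 CPM; log2 fold change 4.10 ± 0.55, SE, edgeR adjusted p = 0.000382). Of 11 genes for Wnt secretion and other secreted regulators (median 4.64), 8 rose and 3 fell. *Wls*, which carries Wnts to the cell surface, was at 9.46, 13.9, 13.4 and 17.0 CPM in ESC libraries and 134.7, 162, 162 and 233 CPM in NPC libraries and rose with no overlap (log2 fold change 3.68 ± 0.21, SE, edgeR adjusted p = 1.54e-05). *Porcn*, which attaches the lipid to Wnts, was at 105.7, 25.3, 87.5 and 27.2 CPM in ESC libraries and 6.84, 14.1, 16.4 and 27.1 CPM in NPC libraries and fell with overlap (log2 fold change -2.02 ± 0.55, SE, edgeR adjusted p = 0.0121), its ESC level being higher in the libraries numbered 1. *Frzb*, the Sfrp relative, rose from 0.58 ± 0.29 to 22.6 ± 1.88 CPM (log2 fold change 5.34 ± 0.38, SE, edgeR adjusted p = 2.91e-05). *Sostdc1*, a secreted Wnt and BMP antagonist, rose from 0.0215 ± 0.0249 to 15.1 ± 6.41 CPM (SD, n = 4), with too few reads in ESCs for a fold. *Cer1*, an antagonist of Wnt, BMP and Nodal, was at 0.130, 0.299, 0 and 0 CPM in ESC libraries and 10.5, 5.36, 10.3 and 3.04 CPM in NPC libraries, so that its ESC reads were all in B/J, and it rose over both crosses (7.87 ± 0.86 in log2), which at 0 counts in J/B depends on the prior count. Lastly, *Notum*, an enzyme that strips the lipid from Wnts, and *Wif1*, a Wnt-binding inhibitor, fell (-2.46 ± 0.26 and -2.19 ± 0.35). *Notum* was called lower in both lines. *Wif1* was called in B/J (-3.53, edgeR adjusted p = 0.00115) but not in J/B (-0.84, edgeR adjusted p = 0.161). Its interaction of stage and cross did not pass the adjustment. *Porcn* was also called in B/J (-2.65, edgeR adjusted p = 0.0242) and not in J/B (-1.40, edgeR adjusted p = 0.154).

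The lists from inside the cell are set beside the same 37.5% of all genes that rose and 31.9% that fell. In the cytoplasm list of 16 genes (median 0.35), 7 rose and 3 fell, led by *Apc2*, a neuronal relative of the scaffold APC (5.99 ± 0.45 in log2), and *Csnk1e*, a casein kinase (1.92 ± 0.21), with *Dvl2*, a relay below the receptor, and *Axin1*, a scaffold of the destruction complex, lower (-0.94 ± 0.14 and -0.93 ± 0.12). In the nuclear list of 10 genes (median 0.15), 5 rose and 3 fell, among them the coactivators *Pygo1* (3.72 ± 0.29) and *Bcl9l* (1.91 ± 0.28) upward and the factors *Lef1* (-1.56 ± 0.37) and *Tcf7* (-1.30 ± 0.20) downward. In the planar polarity list of 9 genes (median 1.05), 4 rose and 1 fell, with *Celsr2* (3.19 ± 0.40) and *Prickle2* (2.34 ± 0.35) higher and *Vangl1* (-1.27 ± 0.15) lower.

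Of 14 feedback and target genes of β-catenin signalling (median -0.62), 4 rose, 5 fell and 5 were not called, against 37.5% of all genes that rose and 31.9% that fell. *Axin2*, the feedback inhibitor most used as a readout, was at 40.8, 50.6, 34.2 and 47.5 CPM in the ESC libraries and 51.7, 72.7, 45.0 and 83.1 CPM in the NPC libraries. Its groups overlapped and it was not called (log2 fold change 0.55 ± 0.24, SE, edgeR adjusted p = 0.0725). *Sp5*, a target factor, was at 7.64, 26.6, 3.36 and 21.6 CPM in ESC libraries and 6.72, 8.14, 10.2 and 9.85 CPM in NPC libraries and was not called (log2 fold change -0.76 ± 0.58, SE, edgeR adjusted p = 0.273), its ESC values being higher in the libraries numbered 2. *Lef1* was at 82.7, 113, 38.1 and 115 CPM in ESC libraries and 33.9, 34.2, 17.0 and 34.0 CPM in NPC libraries, did not overlap and fell (log2 fold change -1.56 ± 0.37, SE, edgeR adjusted p = 0.00642). *Nkd1*, an inhibitor of Dishevelled, rose (4.51 ± 0.40), as did *Rnf43*, while *Cdx1*, a posterior factor, fell from 77.8 ± 73.6 to 0.17 ± 0.17 CPM (-9.52 ± 1.23) along with *Notum*. The ESC medium held an inhibitor of GSK3-β, whose part in any of these levels was not tested.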

How the data were processed

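The 41 members and the gene lists were chosen with earlier results of these data known. The authors deposited 1 table of raw counts per sample, with reads per gene over both alleles and no normalization. They aligned paired-end reads with TopHat2, set for first-strand libraries, to mm39 with SNP positions masked, and kept properly paired reads above a mapping quality. HTSeq is among the tools in the submitters' processing notes, with the strand setting of the counting step and versions not given in the sources used here. Reads without a gene (5.76% to 10.9% of a library) or shared between genes (0.355% to 0.554%) were left out of library sizes. From the counts, edgeR 4.0.16 in R 4.3.3 gave TMM factors (0.820 to 0.885 in ESCs, 1.14 to 1.21 in NPCs), kept 16399 genes by filterByExpr (minimum count 10), and fitted the 4 groups with robust quasi-likelihood dispersions (common dispersion 0.113), with Benjamini-Hochberg adjustment over all genes tested at 0.05. Contrasts set NPCs against ESCs, over both crosses or within 1, tested the interaction, and set J/B against B/J at each stage. Standard errors (SE) of log2 fold changes were derived as the absolute log2 fold change divided by the square root of the F statistic. All members were accounted for, those with a mean of at least 1 CPM at a stage by library. Other pathway genes were counted by list, naming *Axin2*, *Sp5*, *Lef1*, *Frzb*, *Wls*, *Porcn* and the 2 largest rises and falls called at a mean of at least 1 CPM. Lengths and positions came from GENCODE vM39. Alternatives were DESeq2 1.42.0, scaling by *Gapdh*, *Gusb* and *Tbp*, by RLE or by totals alone, limma-voom (limma 3.58.1), 2 other filters, no robust estimation, replicate blocks, only the 4 libraries of a cross, 2-fold in addition, and each library left out, with a lone library taken to vary as the other groups do. The fits were tested on simulated counts. Counting intervals are exact at the 95% level. Allelic counts were not analysed here.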

Additional observations from a re-analysis of the deposited data

Results flagged for a closer look

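Of 57 sets of 4 libraries of a stage, 8 had a library standing apart by Dixon's test, in which chance marks about 1 set in 20. In NPC J/B replicate 2, *Rspo2* was at 94.5 CPM with the other NPC libraries at 1.60 to 13.7 CPM, *Wnt8b* at 36.3 CPM with the others at 0.712 to 6.54 CPM, *Wnt2b* at 7.50 CPM with the others at 1.20 to 1.60 CPM, and *Dkk3* at 21.2 CPM with the others at 15.9 to 16.5 CPM. In NPC J/B replicate 1, *Fzd2* was at 149.5 CPM with the others at 85.6 to 92.0 CPM, and *Wnt8a* at 6.07 CPM with the others at 1.40 to 1.87 CPM. Among ESCs, *Fzd4* was at 6.51 CPM in J/B replicate 1 with the others at 2.78 to 3.12 CPM, and *Wnt6* at 1.13 CPM in B/J replicate 1 with the others at 1.58 to 1.60 CPM.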

How the results depend on the processing

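Of the 29 members called over both crosses, 26 kept their direction and their call under every alternative run for them, *Wnt2*, *Wnt2b* and *Wnt5a* each lost the call in at least 1, and 0 reversed. The number of rises over both crosses was 24 to 28 over all alternatives, and that of falls was 3 to 5 when libraries were left out singly, the 5 being reached without ESC J/B replicate 1. Within B/J, falls went from 3 to 5 with a replicate block within each stage. That block was planned only for the comparison over both crosses, and its use within a cross was chosen after seeing the data.

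Samples with the same replicate number deviated together within a stage (correlation over genes 0.638 between the ESC groups and 0.480 between the NPC groups) but not between stages (0.0453 to 0.0912), and the labels do not say what a number marks. With a replicate block over all libraries, 26 members rose and 4 fell, the added call being *Sfrp4* (-1.43, edgeR adjusted p = 0.00914), and rises went to 24 in B/J and 26 in J/B. The planned block within each stage gave 27 rises over both crosses and 4 falls, the added calls being *Sfrp4* (-1.45, edgeR adjusted p = 0.00597) and *Wnt3* (1.03, edgeR adjusted p = 0.00264).

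Signs turned only among members that were not called. *Sfrp1* was at 0.34 with library totals and 0.49 with scaling to *Gapdh*, *Gusb* and *Tbp*, *Wnt5b* at 0.0616 and 0.20 in the same settings, and *Sfrp5* at -0.0187 in limma-voom. With single libraries left out, changes ranged from -0.0714 to 0.48 for *Fzd4*, -0.21 to 0.34 for *Fzd7*, -0.0918 to 0.16 for *Fzd9*, -0.31 to 0.63 for *Rspo4*, -0.38 to 0.0237 for *Sfrp1*, -0.89 to 0.79 for *Sfrp5*, -0.22 to 1.59 for *Wnt3*, -0.0115 to 1.05 for *Wnt3a*, and -0.66 to 0.00268 for *Wnt5b*. The cause of these shifts was not tested. Members under 1 CPM rest on few counts.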
